A study of Homo sapiens with 4 samples.

Results

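Metallothionein transcripts were measured in BJ-TE cells, a line derived from human foreskin fibroblasts, by 12 probe sets of an Affymetrix expression array. These 12 were all the probe sets annotated to exactly 1 of 8 symbols (MT1E, MT1F, MT1G, MT1H, MT1M, MT1X, MT2A and MT1HL1), out of 22277 probe sets on the array. The family was chosen with earlier results of these arrays known, and its members are treated as selected on the ratio of p73 shRNA over ns shRNA, so every member value in that comparison is a description without a test.

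The 4 groups, of 1 array each, were cells with a non-targeting hairpin (labelled ns) or with a short hairpin RNA against the transcription factor p73, each at 40% and at 100% confluence. The labels name 1 p73 hairpin and mention no further agent, clone or separate cultures. No group had a replicate, so precision is limited by having 4 arrays in all.

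Metallothioneins are small cysteine-rich proteins that bind zinc and copper, and also toxic metals such as cadmium, through the sulphur atoms of their cysteines. Free zinc activates the transcription factor MTF1, which binds metal response elements in their promoters. Glucocorticoids and oxidative stress are known inducers as well, and fibroblasts in culture express the family at a high level.

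The genes lie side by side. In the RefSeq annotation of GRCh38.p14, chromosome 16 has 15 gene entries from MT2A to MT1X: 7 are members, 7 are other metallothionein genes or pseudogenes, and 1 is a long non-coding RNA. MT1HL1, a metallothionein 1H-like gene annotated as protein coding, lies apart on chromosome 1. The coding sequences of the family are near-identical, and 10 of the 12 probe sets carry the suffix x_at, which marks probe sets with probes that can bind other transcripts. Signal of these 10 cannot be assigned to a single gene with certainty.

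The promoters are shown because the metal response elements in them are what the family is known to share. RefSeq promoter windows of 300 bases (250 before and 50 after the start of transcription) were at hand for 3 of the 8 genes, MT2A, MT1H and MT1X. Capitals mark the core of the metal response element, searched as TGCACNC and TGCGCNC on both strands. All 3 windows are on the plus strand of GRCh38.p14, at chr16:56608334-56608633 (MT2A), chr16:56669564-56669863 (MT1H) and chr16:56682220-56682519 (MT1X).
MT2A: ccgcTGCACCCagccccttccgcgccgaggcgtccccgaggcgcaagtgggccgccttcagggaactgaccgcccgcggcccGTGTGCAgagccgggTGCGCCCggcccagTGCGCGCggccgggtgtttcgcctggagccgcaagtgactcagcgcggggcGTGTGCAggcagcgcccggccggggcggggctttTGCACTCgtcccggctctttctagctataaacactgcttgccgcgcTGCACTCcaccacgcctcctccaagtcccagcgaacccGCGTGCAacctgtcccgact
MT1H: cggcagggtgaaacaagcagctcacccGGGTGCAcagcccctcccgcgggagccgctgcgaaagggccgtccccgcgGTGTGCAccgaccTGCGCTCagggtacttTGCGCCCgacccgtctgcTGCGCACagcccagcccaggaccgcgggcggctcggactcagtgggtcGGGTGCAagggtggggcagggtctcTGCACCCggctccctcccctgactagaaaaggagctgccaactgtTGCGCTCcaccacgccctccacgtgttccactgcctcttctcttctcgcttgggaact
MT1X: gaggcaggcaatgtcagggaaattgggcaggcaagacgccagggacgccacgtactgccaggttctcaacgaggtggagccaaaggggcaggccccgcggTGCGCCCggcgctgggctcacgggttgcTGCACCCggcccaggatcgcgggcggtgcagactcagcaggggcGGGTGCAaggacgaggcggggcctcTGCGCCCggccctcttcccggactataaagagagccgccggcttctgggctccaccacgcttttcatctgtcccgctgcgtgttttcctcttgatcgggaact

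The windows of MT2A and MT1H held 8 matches each and that of MT1X held 4. Of 35116 RefSeq promoter windows of the same length, metallothionein windows included, 29.6% held at least 1 match, 0.601% held 4 or more and 0.0199% held 8 or more. Both MT1H and MT1X had a match starting 78 bases and another starting 53 bases before the start site. MT2A had 7 matches before and 1 after its start. A TATA box (TATAAA) was found in the windows of MT2A and MT1X, 29 and 30 bases before the start, and in 11.5% of all windows. MT2A also held the AP-1 core TGANTCA, which 7.71% of windows hold. GC content was 72.0% for MT2A, 68.3% for MT1H and 67.0% for MT1X, against a median of 58.7%. These matches are letters in a window and do not show binding.

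The arrays were checked before the members were compared. Each array had a trimmed mean intensity of 500.1 to 500.2. The 99th percentile of intensity was 13157 on the p73 shRNA array at 40% confluence and 10196 to 11420 on the others, so the bright end was highest on that array; 5 of the 12 metallothionein probe sets were among the brightest 5%. Beta-actin's signal at the 3' end over that at the 5' end, a measure of RNA integrity, was 1.09 and 1.24 at 40% and 1.38 and 1.47 at 100% confluence. The same ratio for GAPDH differed less, at 0.93 and 0.98 at 40% and 1.02 on both arrays at 100%. The TP73 probe set read 1.65 to 2.09 on the 4 arrays, at the floor of detection, and gives no check of the hairpin. All 8 fibroblast markers looked for were above the brightness filter described below, and none of the 17 measured markers of epithelial, endothelial, blood and melanocyte cells was. In such bulk RNA, fewer cells of a kind and less RNA per cell cannot be told apart.

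Values were compared as log2(intensity + 11.6), and a probe set was tested when its mean was at least the median over the array, an intensity of about 111. Of the 12 member probe sets 10 passed, covering 7 of the 8 genes, and these are all the x_at probe sets. The dimmest that passed was MT1F 213629_x_at, at a mean of 8.49 on this log2 scale against a filter of 6.94. The 2 without the suffix, MT1M 217546_at (mean 5.55) and MT1G 210472_at (mean 4.55), did not. None of the member probe sets above the filter is thus free of the cross-hybridisation mark.

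With p73 shRNA most metallothionein probe sets were higher than with ns shRNA, MT1HL1 by far the most. The intensity of MT1HL1 211456_x_at was 3905 with ns shRNA and 11814 with p73 shRNA at 40% confluence. At 100% it was 2115 with ns shRNA and 7080.1 with p73 shRNA. Both p73 shRNA arrays were above both ns arrays. The ratios were 3.02-fold at 40% (log2 1.59) and 3.34-fold at 100% (log2 1.74), and their average, 1.67, was the highest of the 11108 probe sets tested.

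MT2A is the main metallothionein of most human cells. At 40% confluence it read 12382.5 with ns and 17777 with the p73 hairpin, and at 100% it read 10838 and 13031.5. The p73 shRNA arrays were higher at each stage, and both were above both ns arrays. The log2 ratios were 0.52 and 0.27, equal to 1.44-fold and 1.20-fold. MT2A lay between the 99.1st and 99.4th percentile of its arrays, and after quantile normalization, which removes the brighter top end of the p73 shRNA array at 40%, its ratios were 0.21 and 0.16.

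Among the MT1 genes, inducible isoforms of the same cluster, MT1H had the highest average ratio above the filter, 0.59. MT1H 206461_x_at read 2654 (ns) and 3865 (p73 shRNA) at 40%, and 2376 and 3729.8 at 100% confluence. Both p73 shRNA arrays were again above both ns arrays, with log2 ratios of 0.54 and 0.65. These ratios were nearly the same after quantile normalization, 0.53 and 0.67.

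MT1E has a pair of probe sets, both higher with p73 shRNA at each stage. On 212859_x_at the intensities were 5268 and 7524 at 40%, and 3361 and 4450.5 at 100% confluence, for ns and p73 shRNA in that order. The log2 ratios were 0.51 and 0.40, but the p73 shRNA array at 100% lay below the ns array at 40%. On 216336_x_at the intensities were 3854 and 4377 at 40%, and 3189 and 3922 at 100%, with ratios of 0.18 and 0.30. Both probe sets were highest on the p73 shRNA array at 40% and lowest on the ns array at 100%.

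MT1X also has a pair of probe sets, which differed at 40% confluence. On 208581_x_at the intensities were 7455 (ns) and 10548 (p73 shRNA) at 40% and 7558 and 8844 at 100%, with log2 ratios of 0.50 and 0.23. On 204326_x_at they were 1687 and 1792 at 40% and 1151 and 1299 at 100%, with ratios of 0.09 and 0.17. MT1G 204745_x_at read 1216 and 1794 at 40%, and 1353 and 1583 at 100%, with ratios of 0.56 and 0.23. For 208581_x_at and for MT1G both p73 shRNA arrays were above both ns arrays, and for 204326_x_at the arrays of the hairpins overlapped.

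The probe sets of MT1F went opposite ways at 40% confluence. On MT1F 217165_x_at the intensities were 2720.3 (ns) and 2919 (p73 shRNA) at 40%, and 1795 and 2056 at 100%, with log2 ratios of 0.10 and 0.19. On the dimmer 213629_x_at they were 418 and 295 at 40%, and 334 and 351 at 100%, with ratios of -0.48 and 0.07. This was the only member probe set above the filter that was lower with p73 shRNA at either stage.

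**Figure D1:**
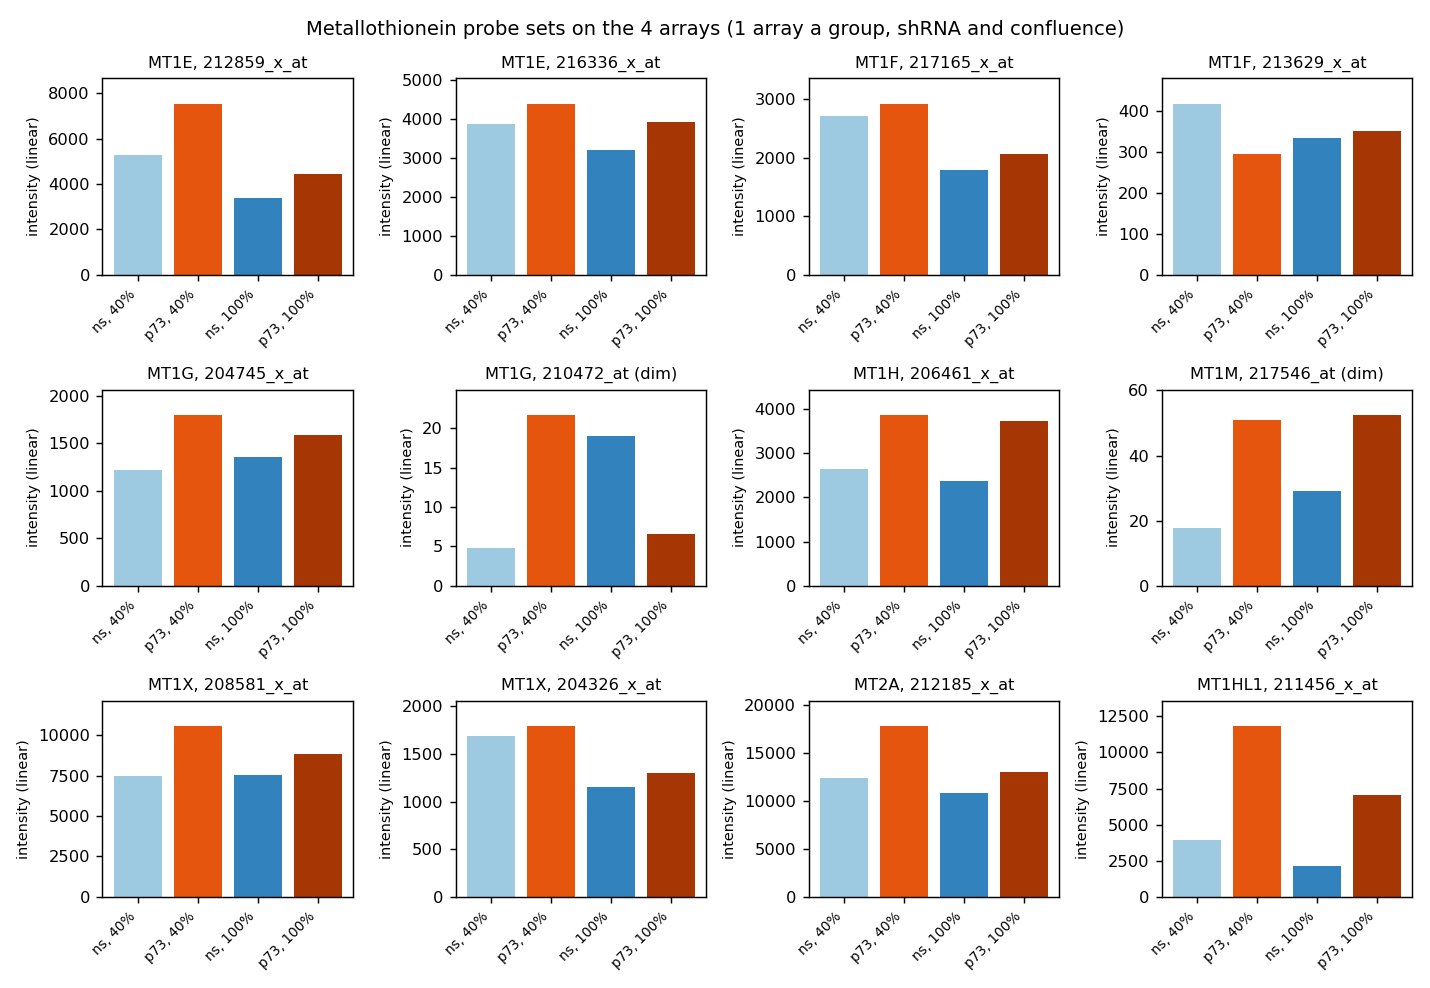
Intensity (linear, y axis from 0, scaled for each panel) of the 12 metallothionein probe sets on the 4 arrays, 1 bar an array, labelled by shRNA and confluence; "dim" marks the 2 probe sets below the brightness filter. The p73 shRNA array at 40% confluence had the tallest bar for 9 of the 10 probe sets above the filter, and the ns array at 100% the shortest for 7.

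Both dim probe sets add little. MT1M 217546_at read 17.7 (ns) and 50.9 (p73 shRNA) at 40%, and 29.1 and 52.4 at 100% confluence, higher with p73 shRNA at each stage. MT1G 210472_at read 4.83 and 21.7 at 40%, and 19.0 and 6.58 at 100%, with no common direction. Of the other metallothioneins, 2 were on the array, both below the filter. MT3, best known from brain, read 39.4 and 68.9 at 40% and 29.2 and 52.9 at 100% confluence, and MT4, a gene of stratified epithelia, read 2.24 to 5.12.

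Across the 10 probe sets above the filter the median log2 ratio was 0.51 at 40% and 0.25 at 100% confluence, against 0.01 and 0.00 for all 11108 tested. At 40%, 9 of the 10 were higher with p73 shRNA, as were 51.1% of all tested and 64.5% of the 1111 brightest, the top 5% of all probe sets. The median of these 1111 was 0.11 at 40% and 0.07 at 100%. At 100%, 10 of 10 were higher, against 50.8% of all and 68.4% of the brightest. Of the 1312 x_at probe sets tested, 63.0% were higher at 40% and 60.7% at 100%, with medians of 0.11 and 0.06. The part of brightness and of cross-hybridisation in the members' ratios was not tested. Without MT1HL1 the medians of the other 9 were 0.50 and 0.23. Since the family is treated as selected on this comparison and its x_at probe sets can share signal, these counts are not independent evidence. After quantile normalization the median was 0.28 at 40% and 0.23 at 100%, and the signs of the average ratio stayed 9 above and 1 below 0.

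In the additive limma model of p73 shRNA and confluence, 1 of the 10 member probe sets, MT1HL1, was called higher with p73 shRNA, where 0.063% of all probe sets tested were called higher, 0.108% lower and 0.171% either way. Because the members are treated as selected on this contrast, nothing is read from that count.

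**Figure D2:**
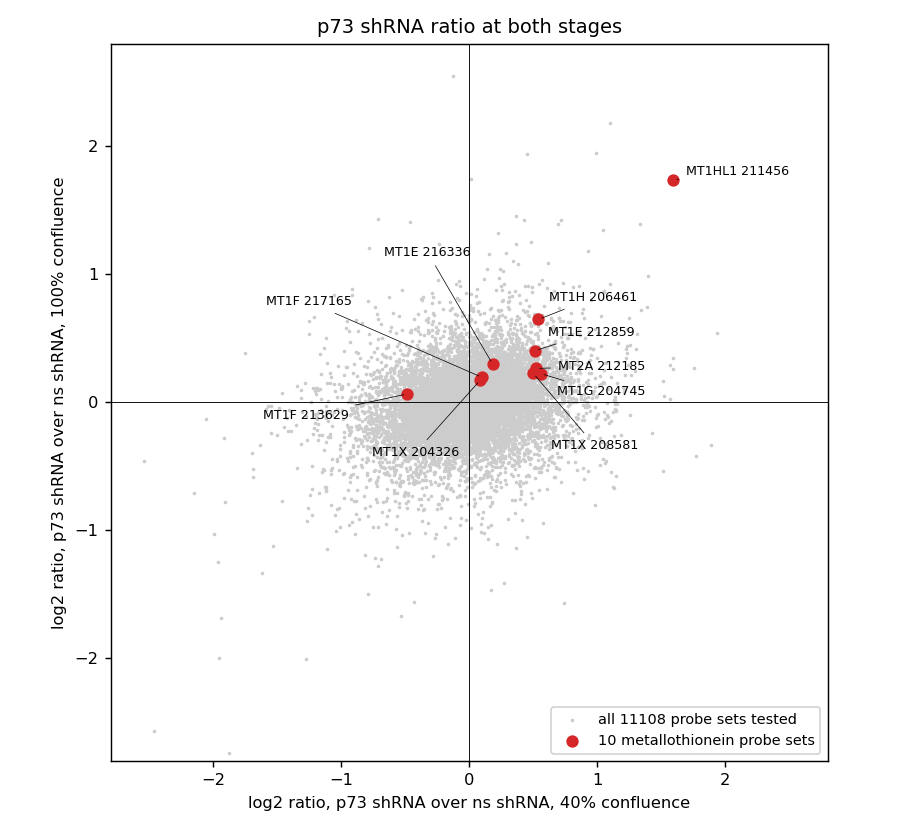
Log2 ratio of p73 shRNA over ns shRNA at 40% (x axis) and 100% confluence (y axis) for all 11108 probe sets tested (grey) and the 10 metallothionein probe sets above the filter (red, with gene and probe set number). MT1HL1 stands apart at 1.59 and 1.74, and the other 9 lie between -0.48 and 0.56 on the x axis and between 0.07 and 0.65 on the y axis.

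**Figure D3:**
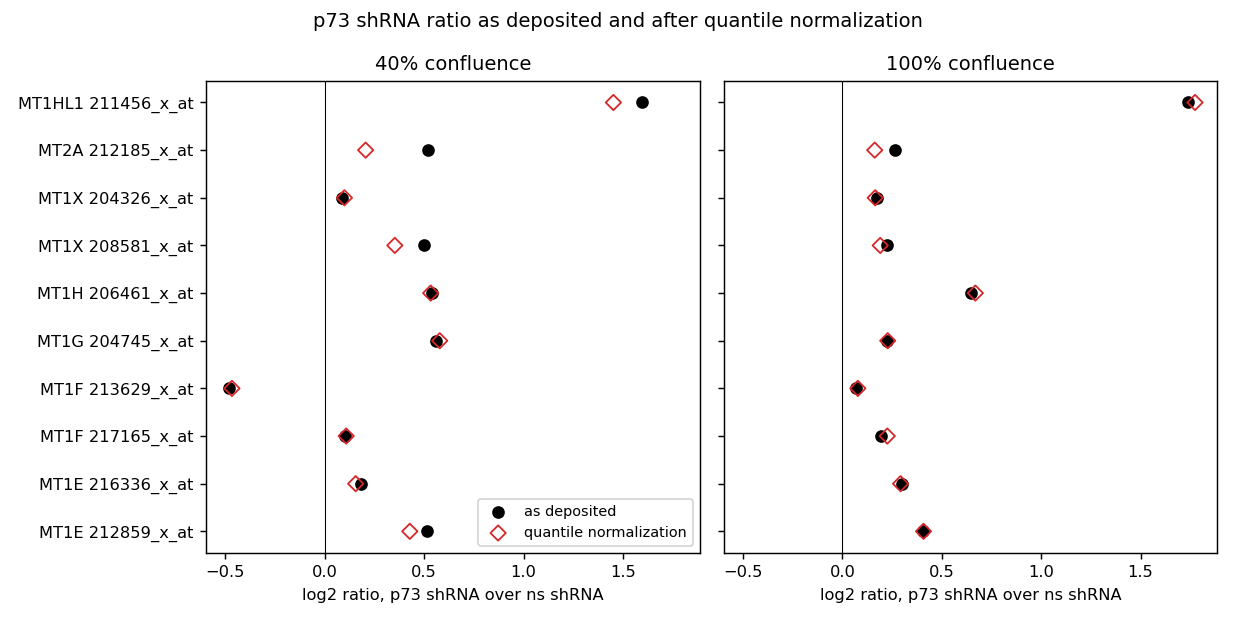
Log2 ratio of p73 shRNA over ns shRNA (x axis) for the 10 metallothionein probe sets above the filter (y axis) at 40% and 100% confluence, from values as deposited (filled circles) and after quantile normalization (open diamonds). The ratio of MT2A at 40% moved from 0.52 to 0.21 and that of MT1X 208581_x_at from 0.50 to 0.35, while MT1HL1 moved from 1.59 to 1.45.

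Confluence was compared next, with the hairpins as the only repeats. Probe sets of MT1HL1, MT1E and MT1F were called lower at 100% confluence, and none of the 10 above the filter was called higher. For MT1HL1 the log2 ratio was -0.88 in the ns pair and -0.74 in the p73 pair (average -0.81, SE 0.17, limma adjusted p 0.00577). MT1E 212859_x_at was lower by -0.65 and -0.76 (average -0.70, SE 0.17, limma adjusted p 0.0118). MT1F 217165_x_at was lower by -0.60 and -0.50 (average -0.55, SE 0.17, limma adjusted p 0.035). For the probe sets called in MT1E and MT1F both arrays at 100% lay below both arrays at 40%, whereas for MT1HL1 the arrays of the stages overlapped.

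These 3 of 10 called lower compare with 11.2% of all probe sets tested, and 0 of 10 called higher with 16.0%. In either direction 27.2% were called. The family was chosen with earlier results of these arrays known, and its x_at probe sets can share signal. The members' counts and adjusted p-values are thus not independent evidence. The adjusted p-values are over all 11108 probe sets. No call held without the brightness filter or with shRNA left out of the model, where 0 of the members passed, and over all settings tried the limma adjusted p ranged from 1.55e-07 to 0.421 for MT1HL1, from 7.61e-06 to 0.263 for MT1E and from 0.000962 to 0.307 for MT1F.

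The other probe sets of MT1E and MT1F did not pass, and MT1HL1 has only 1. MT1E 216336_x_at averaged -0.22 (SE 0.17, limma adjusted p 0.382), 0.49 less in size than its partner. MT1F 213629_x_at averaged -0.04 (SE 0.19, limma adjusted p 0.907), with -0.31 with ns and 0.24 with p73 shRNA. When the probe sets of each gene were averaged, MT1HL1 alone was called, and MT1E (-0.46) and MT1F (-0.29) were not.

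For the other members tested the confluence ratio missed the threshold, and MT1M, below the filter, was not tested. MT1X 204326_x_at averaged -0.50 (SE 0.17, limma adjusted p 0.0502), just outside it, and its partner 208581_x_at averaged -0.12 (SE 0.18, limma adjusted p 0.655). Over the settings tried the limma adjusted p of 204326_x_at ranged from 0.00448 to 0.330 and was below 0.05 in 3 of 9. MT2A averaged -0.32 (SE 0.18, limma adjusted p 0.198), with -0.19 with ns and -0.45 with p73 shRNA. MT1H averaged -0.10 (limma adjusted p 0.683) and MT1G 204745_x_at -0.01 (limma adjusted p 0.965).

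The average ratio was below 0 for 10 of 10 member probe sets, as it was for 49.3% of all tested and 70.1% of the 1111 brightest. Of the 1312 x_at probe sets tested, 55.5% were below 0, with a median of -0.06. All 10 members carry that suffix and can share signal, so they are not 10 separate observations. The members' median was -0.27, against 0.01 for all tested and -0.17 for the brightest. After quantile normalization the median was -0.14 and 9 of 10 were below 0, with MT1X 208581_x_at at 0.05 and MT2A at -0.06. As deposited, 8 of 10 were below 0 in the ns pair and 9 of 10 in the p73 pair. Of all tested 49.3% and 49.4% were, and of the brightest 65.6% and 68.9%. Those above 0 were MT1G 204745_x_at (0.15) and MT1X 208581_x_at (0.02) with ns shRNA, and MT1F 213629_x_at (0.24) with p73 shRNA. The array with the brightest top end was among the 40% arrays and the beta-actin 3' to 5' ratio was higher on both 100% arrays, and the part of either in the members' lower values was not tested.

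**Figure D4:**
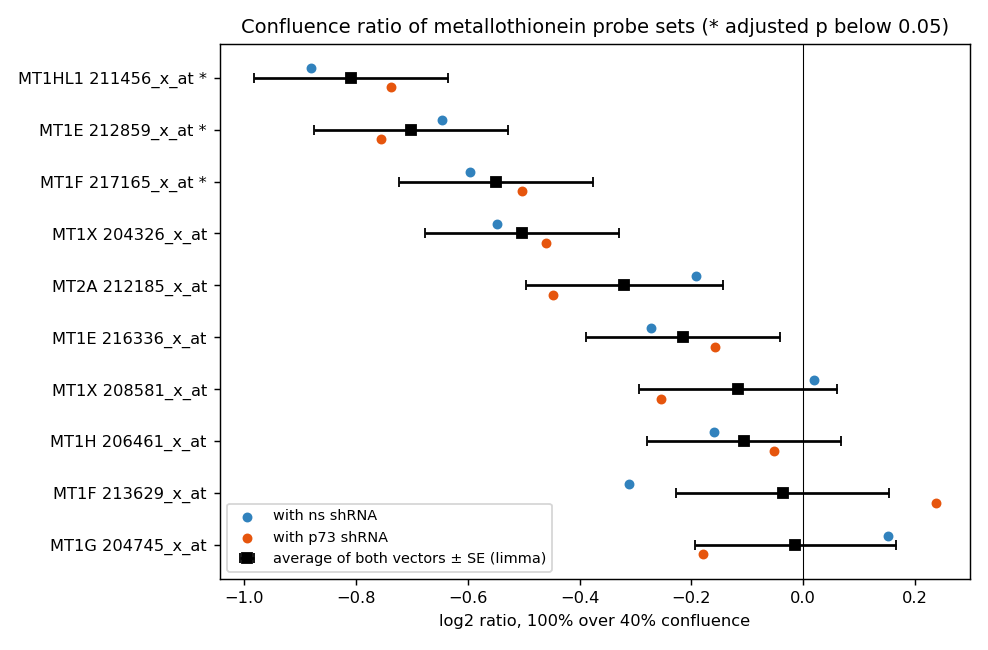
Log2 ratio of 100% over 40% confluence (x axis) for the 10 metallothionein probe sets above the filter (y axis), with ns shRNA (blue), with p73 shRNA (orange) and as the average of both with the limma SE (black squares and bars); asterisks mark an adjusted p below 0.05. The averages run from -0.81 for MT1HL1 to -0.01 for MT1G, and the partner probe sets of MT1E, MT1F and MT1X lie apart.

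The regulators of the family gave no uniform picture. MTF1, the metal-sensing activator, has a pair of probe sets that disagreed. MTF1 205322_s_at read 203 (ns) and 294 (p73 shRNA) at 40% and 130.2 and 206 at 100% confluence, higher with p73 shRNA by 0.51 and 0.62. It fell with confluence (average -0.54, SE 0.17, limma adjusted p 0.0366). MTF1 205323_s_at read 262 and 185 at 40% and 189.6 and 216 at 100%, with p73 shRNA ratios of -0.48 and 0.18. Its confluence average was -0.12 (SE 0.20, limma adjusted p 0.692). Neither probe set was called with p73 shRNA.

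Lists of metal handling and of known metallothionein inducers were counted in a fit with 1 probe set a gene, the brightest, over 6759 genes. In that fit 18.3% of all genes rose and 12.3% fell with confluence, 30.6% in all. Without the brightness filter no gene of these lists was called with confluence, so none of the list calls given below held there. With p73 shRNA 0 of the 64 list genes above the filter passed (limma), where 1.09% of all genes did (0.385% higher, 0.71% lower), and 9 of the 64 had an unadjusted p below 0.05, as did 803 of all 6759 genes. Alternatives called up to 2 of them, SLC30A1 and CRISPLD2, both lower. The lists were chosen with earlier results of these data known, so their counts and adjusted p-values are not independent evidence.

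Of 9 zinc transporters above the filter 4 rose and 1 fell with confluence, with a median of 0.44. The gene that fell was SLC30A1, the zinc exporter of the plasma membrane and a known MTF1 target, which read 964 (ns) and 453 (p73 shRNA) at 40% and 275 and 256 at 100%. Its average was -1.28 (SE 0.21, limma adjusted p 0.000261). With p73 shRNA SLC30A1 was lower at 40% (-1.07) and near equal at 100% (-0.10), while most metallothionein probe sets were higher. The 4 that rose were the zinc importers SLC39A4 (0.68) and SLC39A8 (0.52), the transporter SLC39A7 of the endoplasmic reticulum (0.63), and SLC30A9 (0.48). None of the 4 passed after quantile normalization.

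Among 11 metal sensing and regulator genes, EP300, an acetyltransferase coactivator (0.61), and the zinc finger factor ZNF148 (0.50) rose with confluence and KEAP1, the inhibitor of NRF2, fell (-0.61). The list's median was -0.02, and EP300 and ZNF148 were not called after quantile normalization. The glucocorticoid receptor NR3C1 averaged -0.02 (limma adjusted p 0.947). In copper handling, 1 of 8 rose, the copper exporter ATP7A (average 1.00, SE 0.17, limma adjusted p 0.000431), and 1 fell, the cytochrome oxidase assembly factor SCO2 (-0.65), with a median of 0.06. In iron handling 2 of 7 fell, the transferrin receptor TFRC (-0.86) and the ferritin light chain FTL (-0.69), with a median of -0.14. The FTL call was lost after quantile normalization.

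The lists of known inducing pathways differed in direction. Of 15 oxidative stress genes 7 fell and 1, the glutathione reductase GSR (0.59), rose, with a median of -0.47. After quantile normalization 6 were called lower and 0 higher. HMOX1, heme oxygenase 1, which metals also induce, read 818 (ns) and 1081 (p73 shRNA) at 40% and 135 and 182 at 100%. It fell by 2.50 on the log2 scale (SE 0.17, limma adjusted p 2.94e-08). The cystine transporter SLC7A11 fell by 1.75, the thioredoxin reductase TXNRD1 by 1.53 and GCLM, a subunit of the enzyme that starts glutathione synthesis, by 1.23. Of 6 metal-responsive heat shock genes 3 fell, the chaperones HSPH1 (-0.88), HSPD1 (-0.64) and DNAJB1 (-0.56), with a median of -0.49. The HSPD1 call was lost after quantile normalization.

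Of 8 glucocorticoid-responsive genes 3 rose and 2 fell with confluence, with a median of 0.29. The transcription factor CEBPD rose by 2.44 (SE 0.17, limma adjusted p 3.38e-08) and HSD11B1, which regenerates active cortisol, by 1.65, and the glutamine synthetase GLUL rose by 0.64. The phosphatase DUSP1 fell by 1.05 and the kinase SGK1 by 0.63.

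**Figure D5:**
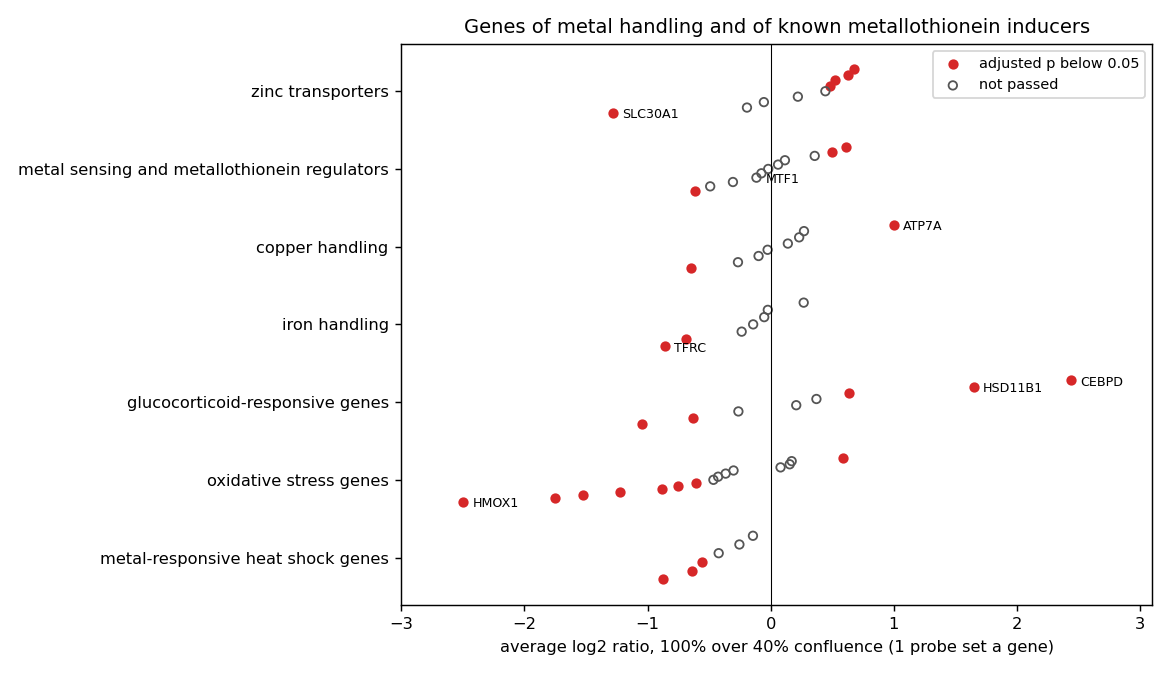
Average log2 ratio of 100% over 40% confluence (x axis) for the genes above the filter of 7 lists (y axis), 1 point a gene, filled red where the adjusted p was below 0.05; selected genes are labelled. Oxidative stress genes reach down to HMOX1 at -2.50, and among zinc transporters SLC30A1 at -1.28 lies apart from the 4 that rose.

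The 5 genes closest to the members' median profile over the 4 arrays were sought among 6752 other genes, by Euclidean distance of centred log2 values. They were the syntaxin STX4 (distance 0.05), the ribosomal protein RPL35A (0.06), the DNA helicase RECQL4 (0.07), the G-protein signalling regulator RGS19 (0.07) and the lipid phosphatase PLPP3 (0.08), against a median distance of 0.62. STX4, the closest, read 744 (ns) and 970 (p73 shRNA) at 40% and 630.4 and 763 at 100% confluence. Member probe sets themselves lay between 0.13 (MT2A) and 1.42 (MT1HL1) from this profile. The likeness rests on 4 arrays.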

How the data were processed

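Per the labels, trizol was used for the RNA extraction and the biotin-labelled target was run on Affymetrix arrays. The deposited table gives 1 linear intensity per probe set and array; no source used here gives the software. From the values, each array was scaled to a common mean (trimmed by 2% at each end), so a change of most transcripts cannot be seen. The 62 control probe sets stayed out. Of the other 22215, 19064 had 1 gene symbol, 1043 had several, and 19052 were matched to current symbols by Entrez ID, all 8 member genes among them.

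The log2 pseudocount, 11.6, is the 20th percentile of all values. Probe sets were fitted with limma 3.58.1 in R 4.3.3: confluence plus shRNA over the 4 arrays, 1 residual degree of freedom, empirical Bayes without intensity trend (prior degrees of freedom 10.5), two-sided tests, Benjamini-Hochberg adjustment, threshold 0.05. The trend was left out because it gave infinite prior degrees of freedom. The 1 residual degree of freedom is the departure of the 4 arrays from additive effects of shRNA and confluence. The variance of each probe set is then drawn toward that of all probe sets tested. A p-value here reflects just that scatter, which may be technical, and not the spread between replicate cultures. The model was tested on simulated data. Ratios of 2 arrays and their differences have no test.

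The members and lists were chosen with earlier results of these data known. The text names every member probe set, up to 4 called genes a list by size of the confluence change, and the 5 nearest profiles. SLC30A9, GSR, SGK1, NR3C1 and MTF1 probe set 205322_s_at were named after their values were seen. Alternatives were the scaling, pseudocount, filter, trend, model, threshold and the choice of probe sets. Figures used matplotlib 3.10.9.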

Additional observations from a re-analysis of the deposited data

Results flagged for a closer look

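Several ratios had opposite directions at the 2 stages or with the 2 hairpins, each on 1 array a group; none of these differences was tested. The difference is the log2 p73 shRNA ratio at 100% minus that at 40% confluence. It was 0.55 for MT1F 213629_x_at, -0.33 for MT1G 204745_x_at, -1.77 for the dim MT1G 210472_at and -0.27 for MT1X 208581_x_at. Among list genes it was 0.98 for SLC39A4, -0.83 for SLC39A7, 0.65 for MTF1 205323_s_at, 0.38 for GLUL and 0.24 for ZNF148.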

How the results depend on the processing

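No paired analysis was possible because the labels give no replicate numbers and each group has 1 array, so no array could be left out either; the model does compare the stages within each hairpin. With confluence, 3018 probe sets were called and 3 members fell. Without the brightness filter 0 of 22215 were called (3819 with an unadjusted p below 0.05) and 0 members. Without shRNA in the model the numbers were 1727 and 0, with the mean of probe sets 1583 and 1, and at an adjusted p below 0.01 they were 1544 and 1. The other settings gave 2070 to 3935 calls and 3 or 4 members. With p73 shRNA, 19 probe sets and 1 member were called. The number was 8 after quantile normalization, 7 and 77 with a pseudocount at the 5th and 40th percentile, 56 with a filter at the 70th percentile, 301 and 3 members with the intensity trend, 74 with 1 probe set a gene, 7 with the mean of probe sets and 9 at an adjusted p below 0.01. It was 0, members included, without the filter (1345 unadjusted) and without confluence in the model (105 unadjusted). The prior degrees of freedom were 2.30 without the filter and 10.5 with it. Why calls were lost was not tested.

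Quantile normalization moved the members' median p73 ratio at 40% to 0.28, their median confluence ratio with p73 shRNA from -0.35 to -0.14, and turned the confluence average of MT1X 208581_x_at from -0.12 to 0.0538. The 2 probe sets without the x_at suffix, both dim, had a median confluence average of 0.13. The other settings left the medians of the members' ratios within the residual spread of the fit. Signal over background limits MT1M and the second MT1G probe set.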
